A study of Mus musculus with 4 samples.

Results

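Zinc transporters move zinc across cell membranes, and metallothioneins bind it in the cytosol. Described here are 10 mouse genes of this kind: the importers Slc39a4, Slc39a6, Slc39a7, Slc39a8, Slc39a10 and Slc39a14, the exporters Slc30a1 and Slc30a5, and the metallothioneins Mt1 and Mt2. They are 10 of 21754 genes or transcripts tested on the arrays. All probes whose RefSeq accession names them were taken, which gave 14 probes, 1 each for 6 genes and 2 each for Slc39a8, Slc39a14, Slc30a1 and Slc30a5. All 10 genes passed the filter on dim probes. The genes were chosen by family with results of these arrays known, and which measured values guided the choice is not recorded. Their values are therefore a description without p-values, and counts of them past a threshold support nothing by themselves.

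The cells were D3, an established mouse embryonic stem cell line, transfected by lipofection with siRNA against Pnpla6 (silenced cells) or used as controls. The product of Pnpla6, neuropathy target esterase (NTE), is a membrane phospholipase that breaks down phosphatidylcholine. Silenced and control cells were both grown as embryoid bodies without LIF, so both were differentiating, and RNA was compared at 24 h and at 96 h. The control cells' own treatment is not given in the sources used here. Each of 4 arrays carried the RNA of silenced cells and of control cells in opposite dyes, 2 arrays per time. Control RNA was in Cy5 on replicate 1 and silenced RNA in Cy5 on replicate 2. The model is 1 cell line with transient silencing and whole cultures. Nothing in the labels says that replicates came from separate cultures, so the errors below cover the spread between these arrays, which may be technical.

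Zinc is a structural or catalytic part of a large share of cell proteins, and cells hold free zinc at very low levels. Slc39a (ZIP) proteins bring zinc into the cytosol from outside or from organelles, and Slc30a (ZnT) proteins take it out of the cytosol, across the plasma membrane or into organelles. The transcription factor Mtf1 senses free zinc and binds metal response elements in promoters of Mt1, Mt2 and Slc30a1, so these transcripts are widely used as readouts of zinc in the cytosol. Slc39a8 and its close relative Slc39a14 also carry manganese, iron and cadmium.

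RefSeq promoter windows of GRCm38.p6, from 250 bases before to 50 bases after a transcript start, were at hand for 7 of the 10 genes, with 9 windows in all. Each was searched on both strands for the core letters of the metal response element, TGCACNC or TGCGCNC, with matches that overlap counted separately. Mt2 held 4 matches, Mt1 3, Slc30a1 2, Slc30a5 1, and Slc39a8 0 in its first window and 1 in its second. No match lay in the window of Slc39a7 or in either window of Slc39a10. Of all 32851 windows of this length in the table, 25.7% held at least 1 match, 7.11% at least 2, 1.97% at least 3 and 0.517% at least 4. Printed below are the 250 bases before the start, 5′ to 3′, with matches in capitals, for the known zinc-responsive genes Mt1 (chr8:94178839-94179088, plus strand), Mt2 (chr8:94172368-94172617, plus strand) and Slc30a1 (chr1:191906531-191906780, plus strand), whose levels ran together. Beside them stand both windows of Slc39a8 (chr3:135825029-135825278 and chr3:135825407-135825656, plus strand), of the 10 the gene with the largest difference between silenced and control cells.
Mt1: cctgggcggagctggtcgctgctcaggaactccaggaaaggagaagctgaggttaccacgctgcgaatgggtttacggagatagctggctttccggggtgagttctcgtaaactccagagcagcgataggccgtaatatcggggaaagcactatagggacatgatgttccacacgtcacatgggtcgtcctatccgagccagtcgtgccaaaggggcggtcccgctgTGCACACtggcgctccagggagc
Mt2: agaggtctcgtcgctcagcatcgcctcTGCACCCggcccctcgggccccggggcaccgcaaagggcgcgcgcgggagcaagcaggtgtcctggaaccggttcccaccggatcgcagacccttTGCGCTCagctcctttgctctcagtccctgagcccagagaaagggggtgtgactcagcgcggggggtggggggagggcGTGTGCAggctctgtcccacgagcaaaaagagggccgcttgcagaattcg
Slc30a1: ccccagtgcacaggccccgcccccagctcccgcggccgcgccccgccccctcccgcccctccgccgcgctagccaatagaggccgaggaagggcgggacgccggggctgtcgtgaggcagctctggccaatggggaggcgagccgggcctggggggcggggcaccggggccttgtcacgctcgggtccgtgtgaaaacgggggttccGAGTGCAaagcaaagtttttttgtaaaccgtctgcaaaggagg
Slc39a8 first start: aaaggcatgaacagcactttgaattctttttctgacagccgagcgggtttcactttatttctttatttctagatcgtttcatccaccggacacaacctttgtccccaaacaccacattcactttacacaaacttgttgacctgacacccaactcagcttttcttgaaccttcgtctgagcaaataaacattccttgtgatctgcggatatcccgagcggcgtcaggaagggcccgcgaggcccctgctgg
Slc39a8 second start: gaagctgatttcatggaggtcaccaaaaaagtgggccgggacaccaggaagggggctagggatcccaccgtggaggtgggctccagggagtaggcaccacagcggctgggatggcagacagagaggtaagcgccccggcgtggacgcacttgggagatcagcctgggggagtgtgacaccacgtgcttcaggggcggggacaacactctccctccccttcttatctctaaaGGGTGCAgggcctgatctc
The other matches lay in the 50 bases after the start, 2 in Mt1 and 1 each in Mt2 and Slc30a1. Windows and positions follow the start that RefSeq gives, which for Mt1 was not checked against another annotation, and another start would shift the window and its counts. A match describes the letters of the window and is no measurement of binding.

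The arrays hold intensities and no counts, so their number limits the precision. Per channel, 62.5 to 68.7% of spots were well above background, and no spot other than controls was marked as saturated. Pnpla6 had log2 ratios of silenced to control cells of −0.73 and −1.0 on the 24 h arrays and 0.13 and −0.11 on the 96 h arrays, so its transcript was low in silenced cells at 24 h and near the control level at 96 h. Over all genes, the ratios of the 24 h arrays correlated with r = −0.434 and those of the 96 h arrays with r = 0.151, while arrays of the same dye orientation at different times correlated with r = 0.359 and 0.389. Ratios below therefore come from a limma fit that estimates 1 mean for each time and allows for the dye, with standard errors of about 0.06 that lean mostly on the spread shared over genes. A gene is said to pass the threshold when its adjusted p, by limma with Benjamini-Hochberg adjustment over all genes tested, was under 0.05. Both 24 h arrays and 96 h replicate 1 shared slide 1, and 96 h replicate 2 was on slide 2.

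At 24 h, when Pnpla6 was low, the 10 genes lay close to the control level. Their ratios ran from −0.13 for Slc39a14 to 0.06 for Slc39a6, with a median of −0.045 against 0.00066 over all genes. None of the 10 passed the threshold, which 0.372% of all genes did, and 1 (Slc39a14) had an unadjusted limma p under 0.05.

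At 96 h Slc39a8 stood far from the other 9. The median of the 10 was −0.0033 against 0.00099 over all genes, and without Slc39a8 the ratios ran from −0.26 (Slc30a1) to 0.23 (Slc39a14). Past the threshold were 4 of the 10, Slc39a8, Slc30a1 and Mt2 lower and Slc39a14 higher in silenced cells, where 13.4% of all genes were past it. Without the dye term, or with any array left out, 1 of these 4, Slc39a8, stayed past the threshold. For the silencing effect at 96 h minus that at 24 h, Slc39a8 and Slc39a14 were past the threshold, where 6.92% of all genes were. Neither was past it without the dye term, with any array left out or with the authors' processed signals.

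**Figure D1:**
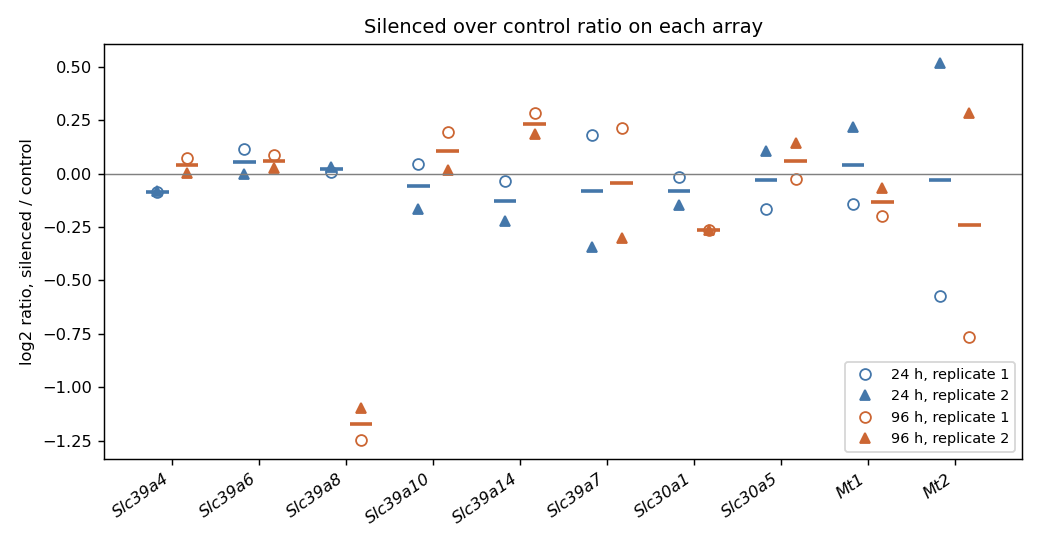
Log2 ratio of silenced to control cells (vertical axis) for the 10 genes on each array, with 24 h in blue and 96 h in orange, open circles for replicate 1 and filled triangles for replicate 2. Short bars are the fitted means per time. Slc39a8 lies at −1.25 and −1.10 at 96 h, and the Mt2 points split by dye orientation at both times.

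Among importers, Slc39a8, which carries zinc and manganese through the plasma membrane, gave log2 ratios of 0.01 and 0.03 on the 24 h arrays and −1.25 and −1.10 on the 96 h arrays. Both 96 h arrays were thus far below both 24 h arrays, whichever dye carried the silenced RNA. The 96 h array on slide 1, together with the 24 h arrays, gave −1.25, and the array on slide 2 gave −1.10. The fitted ratio at 96 h was −1.17 ± 0.06 (SE, 2 arrays), a level 2.25-fold lower, or 44.4% of the control level, and the 9th lowest of 21754. The difference of the effects was −1.19 ± 0.09 (SE). The second Slc39a8 probe gave −0.09 and −0.03 at 24 h and −0.83 and −0.75 at 96 h. It was not well above background on any 24 h array.

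Normalized log2 intensities in each channel show where the Slc39a8 difference arose. In control cells they were 6.38 and 6.33 at 24 h and 9.02 and 8.79 at 96 h. In silenced cells they were 6.39 and 6.36 at 24 h and 7.77 and 7.69 at 96 h. The transcript was near the lower end of the scale in all 24 h channels, was higher in both RNAs at 96 h, and reached less in silenced cells, with no overlap between the silenced and control channels at 96 h. The difference of 96 h from 24 h, from a limma fit of single channels, was 2.55 ± 0.11 (SE) or 5.84-fold in control cells and 1.36 ± 0.11 or 2.56-fold in silenced cells. These values depend on the treatment of dim signals: with a normexp offset of 16 they were 3.23 and 1.88, and with the scanner's processed signals 4.63 and 3.22. By the second probe, the mean 96 h level was 2.26-fold the 24 h level in control cells and 1.37-fold in silenced cells. These are differences of the measured means. They too depend on dim signals, since this probe was not well above background at 24 h.

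**Figure D2:**
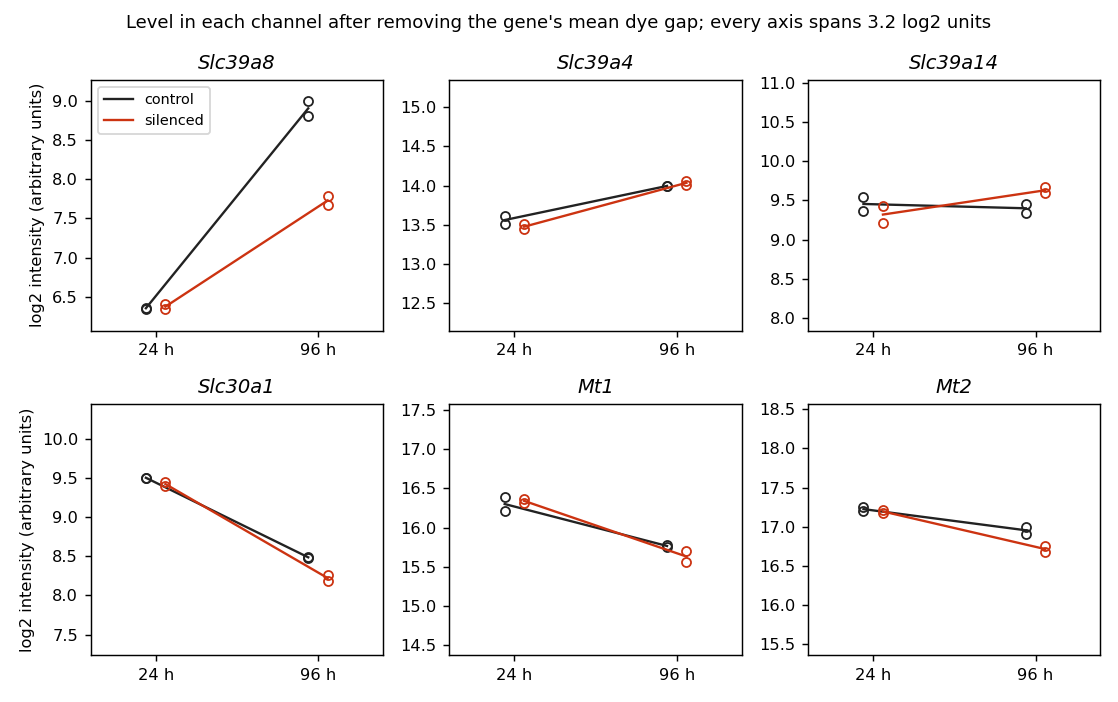
Normalized log2 intensity in arbitrary units (vertical axis) in all 8 channels, after removing each gene's mean gap between the dyes, for control (black) and silenced (red) cells at 24 h and 96 h, with lines joining the means. Every axis spans the same range. The control and silenced lines part clearly for Slc39a8, while Slc30a1, Mt1 and Mt2 slope down and Slc39a4 slopes up in both RNAs.

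Slc39a14, the closest relative of Slc39a8, went the other way. Its log2 ratios were −0.04 and −0.22 at 24 h and 0.28 and 0.18 at 96 h, so both 24 h arrays were below and both 96 h arrays above 0. The fitted ratio was −0.13 ± 0.06 (SE) at 24 h and 0.23 ± 0.06 at 96 h, and the effects differed by 0.36 ± 0.09. The log2 levels were 9.51 and 9.40 in control cells and 9.47 and 9.18 in silenced cells at 24 h, and 9.43 and 9.37 in control cells and 9.71 and 9.55 in silenced cells at 96 h. By this probe the silenced channels at 96 h were the highest, and the other 3 groups overlapped with their neighbours. The second probe gave ratios of −0.14 and 0.01 at 24 h and 0.26 and 0.12 at 96 h. Over time the probes disagreed: from 24 h to 96 h the mean channel level of the second probe differed by −0.42 in control and −0.16 in silenced cells, that of the first by −0.02 and 0.35.

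The remaining importers did not pass the threshold for silencing at either time. Slc39a4, the zinc importer of the gut epithelium, had ratios of −0.09 and −0.08 at 24 h and 0.07 and 0.00 at 96 h. Slc39a6 and Slc39a10, a related pair whose proteins join in a complex, had fitted ratios at 96 h of 0.06 ± 0.06 (SE) and 0.10 ± 0.06. Slc39a7, which releases zinc from the endoplasmic reticulum, had ratios of 0.18 and −0.34 at 24 h and 0.21 and −0.30 at 96 h. The sign of the Slc39a7 ratio went with the dye orientation at both times, and its fitted ratio at 96 h was −0.04 ± 0.06.

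Over time Slc39a4 was higher at 96 h in both RNAs. Its log2 levels were 13.60 and 13.51 in control cells and 13.52 and 13.43 in silenced cells at 24 h, against 14 in both control channels and 14.07 and 14 in silenced cells at 96 h. No 24 h channel reached any 96 h channel. The difference was 0.44 in control cells and 0.56 ± 0.09 (SE) in silenced cells, but 0.14 and 0.27, not past the threshold, with the scanner's processed signals. For Slc39a6, Slc39a7 and Slc39a10 the time differences ran from −0.12 to 0.16 in both RNAs.

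Of the exporters, Slc30a1, which carries zinc out through the plasma membrane, was lower at 96 h than at 24 h and lower still in silenced cells. Its log2 levels were 9.48 and 9.52 in control cells and 9.47 and 9.37 in silenced cells at 24 h. At 96 h they were 8.46 and 8.51 in control cells and 8.20 and 8.25 in silenced cells. Every 96 h channel was below every 24 h channel, and at 96 h the silenced channels were below the control channels. The time difference was −1.02 in control cells and −1.20 ± 0.10 (SE), or 2.29-fold lower, in silenced cells. The ratio of silenced to control cells at 96 h was −0.26 on both arrays, with a fitted −0.26 ± 0.06 (SE), or 83.3% of the control level. The second Slc30a1 probe gave smaller values in the same direction: −0.41 and −0.58 for the time difference in control and silenced cells, and −0.10 and −0.08 for the ratios at 96 h.

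Slc30a5, which loads zinc into the secretory pathway, had ratios of −0.17 and 0.11 at 24 h and −0.03 and 0.14 at 96 h. By this probe the sign went with the dye orientation, and the fitted ratio at 96 h was 0.06 ± 0.06 (SE). Its time difference was 0.21 in control cells and 0.30 ± 0.12 in silenced cells, neither past the threshold. The second Slc30a5 probe gave ratios of −0.09 and −0.05 at 24 h and 0.11 and 0.04 at 96 h, so its sign went with time. Its time differences were smaller, 0.05 in control and 0.19 in silenced cells.

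Both metallothioneins were lower at 96 h. Mt1 had log2 levels of 16.46 and 16.15 in control cells and 16.31 and 16.37 in silenced cells at 24 h, and of 15.84 and 15.69 in control cells and 15.64 and 15.62 in silenced cells at 96 h. All 96 h channels lay below all 24 h channels. The time difference was −0.54 in control cells and −0.71 ± 0.13 (SE), or 61.0% of the 24 h level, in silenced cells. Its ratios of silenced to control cells were −0.14 and 0.22 at 24 h and −0.20 and −0.07 at 96 h, with a fitted −0.13 ± 0.06 at 96 h, not past the threshold.

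Mt2 had ratios of −0.57 and 0.52 at 24 h and −0.76 and 0.28 at 96 h. Its sign was opposite on the arrays of a time, negative on replicate 1 and positive on replicate 2, and its signal was 0.54 log2 units higher in Cy5 than in Cy3 on average. The fitted ratio of −0.24 ± 0.06 (SE) at 96 h, past the threshold, rests on the dye term, and without 96 h replicate 1 it turned to 0.28. Once the dye gap was removed, the 96 h levels were below the 24 h levels, by −0.27 in control cells and −0.49 ± 0.09 (SE) in silenced cells. Mt1 and Mt2 are similar in sequence, and how far a probe of either catches the other was not tested.

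**Figure D3:**
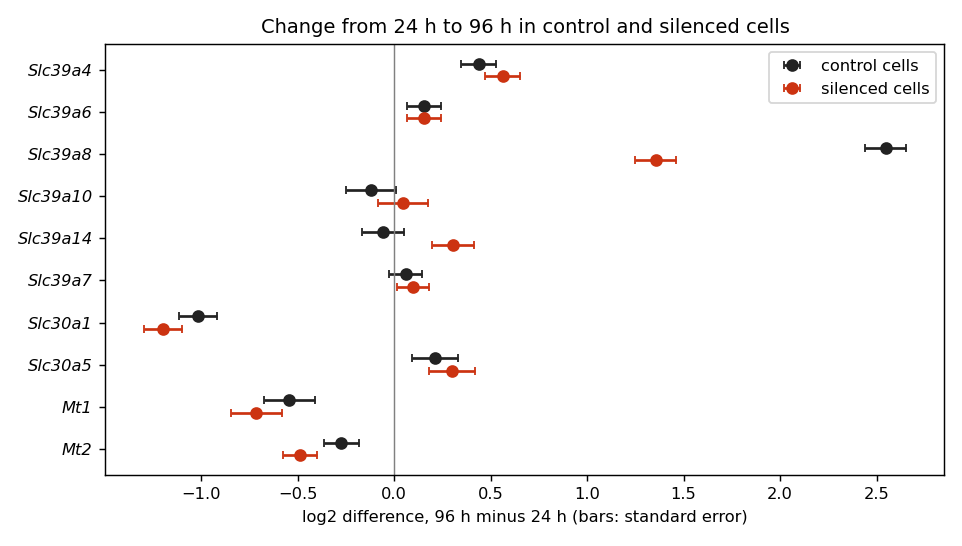
Log2 difference of 96 h from 24 h (horizontal axis) in control cells (black) and silenced cells (red) for the 10 genes, with the standard error as bars. Slc39a8 and Slc39a4 lie right of 0 and Slc30a1, Mt1 and Mt2 left of 0 in both RNAs, and for Slc39a8 the red point lies well left of the black one.

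Past the threshold over time were 5 of the 10 in control cells, where 36.8% of all genes were, and 5 of the 10 in silenced cells, where 37.8% were. They were Slc39a8 and Slc39a4 (higher at 96 h) and Slc30a1, Mt1 and Mt2 (lower at 96 h) in both RNAs. In control cells Mt2 was not past the threshold with a normexp offset of 16 (−0.27), with quantile normalization over all channels (−0.16) or without 96 h replicate 1 (−0.22). The median of the 10 was 0.002 in control cells and 0.13 in silenced cells, against −0.027 and −0.029 over all genes. Control and silenced cells of a time shared arrays, so these are values side by side and not independent comparisons.

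Over the 8 channels, with each gene's mean per dye removed, Slc30a1 ran with Mt1 (Pearson r = 0.97) and Mt2 (0.96), and Mt1 with Mt2 (0.93). Slc39a4 ran opposite to Slc30a1 (−0.97). The 8 channels share 4 arrays and consist mainly of a step between times, so such values are common: among 12972 genes, 1526 had r above 0.95 with Mt1, 1671 with Slc39a4 and 506 with Slc39a8. The profiles most like that of Slc39a8 were those of the kinase Cdk14 (0.999), the actin-binding protein gene Tagln (0.999) and the ubiquitin ligase Pdzrn3 (0.998). Tagln differed between 96 h and 24 h by 2.52 in control and 1.26 in silenced cells, and its ratio at 96 h was −1.25. Most like Mt1 were Etnk2 (0.998), Fkbpl (0.998) and Celf4 (0.997), and most like Slc39a4 were Sidt2 (0.998), Kazn (0.998) and Serhl (0.997).

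Other genes of zinc handling, from lists drawn by family, mostly did not pass. These lists and those below were drawn with earlier results of these arrays known. Genes were then named by smallest p, so the p-values given for them are a description. None of the 5 other importers tested passed at 24 h or 96 h by limma; at an unadjusted p under 0.05 there were 0 and 1. Their ratios at 96 h ran from −0.13 to 0.10 with a median of 0.02. Over time, where 36.8% and 37.8% of all genes were past the threshold in control and silenced cells, 1 of the 5 rose, Slc39a11, by 0.66 ± 0.10 (SE) in both RNAs (adjusted p 0.0019 in control and 0.0018 in silenced cells).

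Of the 6 other exporters tested, 1 fell with silencing at 96 h and 0 rose, where 13.4% of all genes were past the threshold. This was Slc30a3, which loads zinc into synaptic vesicles, with ratios of −0.30 and −0.18 on the 96 h arrays and a fitted −0.24 ± 0.06 (SE, adjusted p 0.0067). Over time Slc30a9, a mitochondrial zinc exporter, rose by 0.91 ± 0.14 (SE, adjusted p 0.0023) in control cells and 0.89 ± 0.14 (0.0025) in silenced cells. Slc30a10, a manganese exporter, fell in control cells by 0.29 ± 0.09 (SE, adjusted p 0.036). Its probe was well above background on only 1 control array at 96 h, so this value is near the floor, and its other probe was above background in no group. In silenced cells 0 of the 6 fell past the threshold over time.

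Mt3, Mt4 and Mtf1 did not pass for silencing at either time; at an unadjusted p under 0.05 there were 0 at 24 h and 1 (Mtf1) at 96 h. Mtf1, the zinc sensor, had ratios of 0.16 on both 96 h arrays (adjusted p 0.092). Over time Mtf1 fell, with −0.50 ± 0.10 (SE, adjusted p 0.0057) in control cells and −0.30 ± 0.10 (0.042) in silenced cells.

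**Figure D4:**
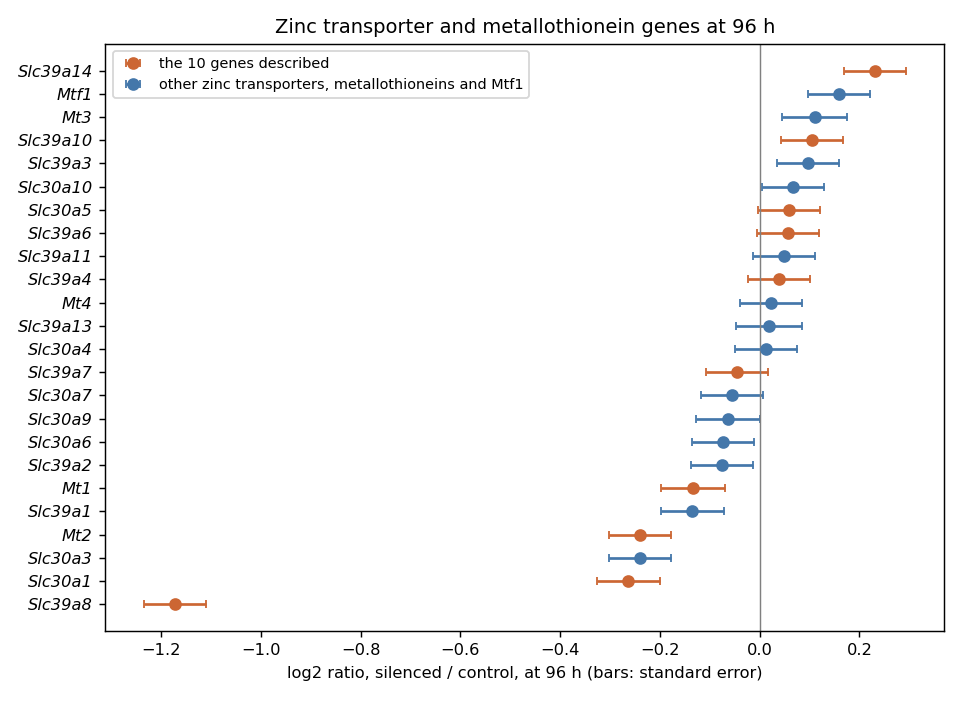
Log2 ratio of silenced to control cells at 96 h (horizontal axis) with its standard error for the 10 genes (orange) and the other zinc transporters, metallothioneins and Mtf1 that were tested (blue), sorted by value. Slc39a8 at −1.17 lies apart, and the others lie between −0.26 and 0.23.

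Secreted and membrane-bound enzymes that hold zinc were 13 in number among those tested. At 96 h 2 fell and 1 rose with silencing, with a list median of −0.03 against 0.00099 over all genes, of which 13.4% were past the threshold. Enpp2 (autotaxin, which makes lysophosphatidic acid) gave −0.96 and −0.74 on the 96 h arrays, fitted −0.85 ± 0.06 (SE, adjusted p 3.6e-12). The carbonic anhydrase Car4 gave −0.48 and −0.53, fitted −0.50 ± 0.06 (2e-07). The alkaline phosphatase Alpl gave 0.23 and 0.36, fitted 0.29 ± 0.06 (0.0015). In control cells over time, 5 of the 13 rose and 2 fell, where 36.8% of all genes were past the threshold. Car4 (3.71), Enpp2 (2.31) and the metalloproteinase Mmp2 (1.56) rose most. At 96 h Enpp2 and Car4, like Slc39a8, had levels that were higher than at 24 h and lower in silenced than in control cells. Mmp2 went the other way with silencing, with ratios of 0.20 and 0.15 on the 96 h arrays, not past the threshold.

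Of 20 genes of copper, iron and manganese handling that were tested, 3 rose and 3 fell with silencing at 96 h, where 13.4% of all genes were past the threshold, with a median of 0.01 against 0.00099 over all genes. The iron exporter Slc40a1 had ratios of −0.49 and −0.25 and a fitted −0.37 ± 0.07 (SE, adjusted p 0.00015), after a rise over time in control cells of 2.48. The copper transporter Slc31a2 had 0.42 and 0.20, fitted 0.31 ± 0.06 (4e-04), but its other probe gave 0.10. The ferroxidase Heph had −0.32 and −0.24, fitted −0.28 ± 0.06 (0.0014). The metalloreductase Steap2 had −0.45 and −0.11, fitted −0.28 ± 0.06 (0.0015), but its other probe gave −0.03. At 24 h none of these lists had a gene past the threshold; among the metal genes 3 had an unadjusted p under 0.05, among the exporters 1 and among the enzymes 0. Without the dye term, Enpp2 stayed past the threshold at 96 h, and Slc30a3, Car4, Alpl, Slc40a1, Slc31a2, Heph and Steap2 did not. With the authors' processed signals 0 genes passed at 96 h, so Enpp2 did not pass there either.

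Markers of cell types were read beside the Slc39a8 result, since in RNA of whole cultures fewer cells of a type and less RNA per cell cannot be told apart. All 10 stem cell markers on the array were well above background in all 4 RNA groups, with summed intensities from 320000 to 358000. Markers counted as higher or lower at 96 h were past the threshold, as 13.4% of all genes were. Without the dye term 106 genes were past it, and with the authors' processed signals 0. At 96 h 5 stem cell markers were higher (at most 0.37) and 1 lower in silenced cells. The lower one was Pou5f1 (−1.05), which at 24 h was past the threshold in the other direction (0.68). Its ratios were 1.575 and −0.209 at 24 h and 0.007 and −2.111 at 96 h, higher on replicate 1 at both times. Of 10 feeder fibroblast markers, 5 in control and 4 in silenced cells were above background at 24 h, and 6 and 7 at 96 h, while Col3a1, Lum and Postn were above it in no group. The summed intensity of this list was 1830 and 1820 at 24 h and 3020 in control and 2690 in silenced cells at 96 h, where 4 of 7 tested were lower and 1 higher. Of 6 neural progenitor markers, 4 at 24 h and 5 at 96 h were above background (Fabp7 in no group). Their sum was 1020 and 1050 at 24 h and 1150 in control and 741 in silenced cells at 96 h, where 2 of 5 tested were lower. These were Nes (−1.02) and Zic2 (−0.40), while Sox1 (0.001), Pax6 (0.03) and Zic1 (−0.09) were not past the threshold. Of 15 endoderm markers, 9 in control and 8 in silenced cells were above background at 24 h, and 9 and 12 at 96 h (Ttr and Apoa1 in no group). They summed to 2110 and 2140 at 24 h and 4330 in control and 4170 in silenced cells at 96 h, where 2 of 12 tested were higher and 1 lower. Cubn (1.05) and Amn (0.29) were the higher ones and Lrp2 (−0.25) the lower one. Of 5 blood markers on the array, 0 were above background in control cells at either time and 1 in silenced cells at 96 h. The part of these cell types in the values of Slc39a8 and the other genes was not tested.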

How the data were processed

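RNA of control and silenced D3 cells was hybridised to 4 two-colour Agilent arrays. The labelled input was 200 ng of total RNA, per the labels. Spots were read with Agilent Feature Extraction, per the file headers in version 10.7.1.1 and per the submitters' processing notes in version 10.7; these notes also name limma without a version. The deposited files hold median spot and background signals as intensity in arbitrary units, the authors' background-subtracted and dye-normalized processed signals as intensity, and the authors' log10 ratios of Cy5 to Cy3. The deposited series table holds these log10 ratios turned to silenced over control (largest gap 4.97e-06). The deposited p-value of each spot covers a single array and entered no test.

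With R 4.3.3 and limma 3.58.1, median signals were corrected by normexp (offset 50) and normalized by loess within arrays with control spots at weight 0. The 1 non-uniform spot was left out. Probes had to be well above background on both arrays of at least 1 RNA group (28082 of 41174), and the brightest probe stood for a gene. Symbols came from RefSeq accessions (24375 probes). Silencing was fitted on all 4 arrays with a mean per time and a dye term, which coincides with replicate number (1 residual and 33.1 prior degrees of freedom). Times were compared on single channels after Aquantile normalization (lmscFit, 4 RNA groups, dye term, intraspot correlation 0.896). Tests were two-sided. Both fits were also run on simulated data in which a gene's dye effect was the same at both times, as the dye term assumes. Such data cannot show how calls behave where this assumption fails. The members and lists were chosen with earlier results of these data known. From each list, named genes were up to 4 past the threshold with the smallest p in a comparison, or up to 2 where none passed; Slc39a8, Mt1 and Slc39a4 each got the 3 genes of highest Pearson r. Alternatives changed the offset, the normalization, the signals, the dim-probe filter, the dye term or replicate block, the probe rule and the arrays included.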

Additional observations from a re-analysis of the deposited data

Results flagged for a closer look

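Cell type markers and genes named only for a similar profile were left out here. For 9 other genes named above, the silencing effect at 96 h differed from that at 24 h in the limma contrast of the effects (Benjamini-Hochberg adjusted p under 0.05). Of all genes, 6.92% did so. No gene passed for this contrast without the dye term, with any array left out or with the authors' processed signals, so all 9 calls rest on the dye term and on the signals used (limma's unadjusted p was under 0.05 for 1297 genes without the dye term, 844 to 1084 with an array left out and 2937 with the authors' signals). Values are log2 ratios of silenced to control cells, and for Slc39a8 and Slc39a14, which were chosen with results of these arrays known, they are a description. The lists that hold Enpp2, Car4 and the genes of other metals were also drawn with earlier results known. P-values given for these genes are a description too. For Slc39a8 the effects were 0.02 at 24 h and −1.17 at 96 h, a difference of −1.19. Its 24 h signals were near the lower end of the scale, which limits the 24 h effect, and its second probe was not well above background there. For Slc39a14 the effects were −0.13 and 0.23, a difference of 0.36. The silenced gene Pnpla6 had −0.87 and 0.01, a difference of 0.87 (adjusted p 6.6e-09).

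Enpp2 had 0.00 at 24 h and −0.85 at 96 h, a difference of −0.85 (adjusted p 3.1e-08), and Car4 had −0.12 and −0.50, a difference of −0.38 (0.0039). The metalloreductase Steap2 had 0.16 and −0.28, a difference of −0.44 (0.00084), while its other probe, also well above background, had 0.00 and −0.03. The iron exporter Slc40a1 had 0.04 and −0.37, a difference of −0.42 (0.0043). The metal transporter Slc11a1 had −0.08 and 0.25, a difference of 0.33 (0.017), and the transferrin receptor Tfr2 had −0.17 and 0.14, a difference of 0.31 (0.033).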

How the results depend on the processing

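With 2 arrays per time and opposite dyes, counts past the threshold for silencing depended strongly on the offset, the signals used and the dye term. At 24 h the 81 genes became 0 with offset 16, 42 with median centring, 0 with the authors' processed signals, 9 with the mean of a gene's probes and 0 to 0 in fits that leave out an array; limma's unadjusted p was under 0.05 for 1616 genes with offset 16 and 1571 with the authors' signals. At 96 h the 2917 genes (1438 higher, 1479 lower) became 1016 with offset 16, 1798 (1126 higher, 672 lower) with median centring, 0 (3846 unadjusted) with the authors' signals and 29 to 114 with an array left out; of the 10 genes, 4 became 1 with offset 16, 3 with median centring, 0 with the authors' signals and 1 to 1 with an array left out. For the difference of effects, 1506 became 271 with offset 16, 737 with median centring, 0 (2937 unadjusted) with the authors' signals, 957 with the mean of probes and 0 to 0 with an array left out (844 to 1084 unadjusted); of the 10 genes, 2 became 1 with offset 16, 0 with the authors' signals and 0 with an array left out. Silencing fits that leave out an array have no dye term; single-channel fits without an array reused the intraspot correlation of all arrays and gave 10260 to 12088 genes over time in control cells (7995 with all arrays; the 12088 without 24 h replicate 2) and 10173 to 12534 in silenced cells (8220; the 12534 without 24 h replicate 1), with 5 to 6 and 6 to 7 of the 10. The causes were not tested.

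Same-numbered arrays deviated together (r = 0.696), but they share only a number that coincides with dye orientation, so no pairing is claimed. Without this replicate block, 0 genes passed at 24 h (216 unadjusted), 106 at 96 h with 1 of the 10, and 0 for the difference (1297 unadjusted) with 0 of the 10. With the replicate block beside the dye term, 12468 genes passed over time in control cells and 12676 in silenced cells, and Slc30a5 (both RNAs) and Slc39a14 (silenced cells) passed too. Over time in control and silenced cells, 7483 and 7764 genes passed with offset 16, 8018 and 8253 with quantile normalization, and 8396 and 8586 with the authors' signals, with 4 and 5, 4 and 5, and 4 and 4 of the 10. A slide term beside the dye term leaves no residual degree of freedom; slide 1 alone is the fit without 96 h replicate 2.

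Slc39a8 at 96 h kept its direction in every setting (−1.45 to −0.98) and stayed past the threshold except with the authors' signals. Of 50 values of the 10 genes, 10 in each of 5 comparisons, 19 took both signs over the settings, 18 of them not past the threshold to begin with, such as Slc39a7 at 96 h (−0.30 to 0.21), Mt1 at 24 h (−0.14 to 0.22) and Mt2 at 24 h (−0.57 to 0.52). The other was Mt2 at 96 h (−0.76 to 0.28 with an array left out, positive without 96 h replicate 1). Among named genes of the other lists, directions turned for Mt3 at 96 h (−0.12 to 0.33) and in the difference (−0.11 to 0.34), both negative without 96 h replicate 2, Mt4 (−0.16 to 0.06) and Mtf1 (−0.08 to 0.00) at 24 h without 24 h replicate 1, and Slc39a11 at 24 h (−0.01 to 0.11) without 24 h replicate 2. Dim probes limit the 24 h level of Slc39a8.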
